A study of Mus musculus with 8 samples.

Results

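The 6 genes described here serve the phosphagen energy transfer and the oxygen store of heart muscle: the creatine kinases Ckm, Ckmt2 and Ckb, the creatine transporter Slc6a8, the adenylate kinase Ak1 and myoglobin (Mb). They were taken as the rows of the count table whose mouse Ensembl gene ID maps to one of these symbols, which gave 6 of 54752 genes. All 6 passed the filter on low counts, which left 14665 genes for testing. The rule uses symbols and no measured value, but the set was chosen with earlier results of these data known.

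The study compared isolated mouse heart muscle cells with and without Cre-mediated deletion of Carm1, an arginine methyltransferase that modifies histones and other proteins, in messenger RNA libraries from total RNA. There were 8 libraries in 4 groups of 2: 3w KO, 3w control, 1w KO and 1w control, where 3w and 1w are the 3 and 1 weeks of the sample names. All mice carried floxed Carm1 alleles (Carm1fl/fl); KO mice received adeno-associated virus 9 with Cre recombinase (AAV9-Cre), and control mice the same virus type with GFP (AAV9-GFP). Injections are labelled as postnatal day 3 and 4 for the 3w libraries and day 1 and 2 for the 1w libraries, in KO and control alike. In each group the first library carries the earlier day and the second the later, so labelled day and replicate number cannot be told apart. Hearts were mosaic, so uninfected cells lay beside infected ones, and cells were isolated on a Langendorff perfusion system, with no sorting step described. There was no control with Cre but without floxed Carm1, and effects of the recombinase and of the deletion cannot be told apart. Nothing states outright that both libraries of a group stem from different animals, so p-values here cover the library-to-library spread alone, and that spread may be technical.

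Creatine kinases move a phosphate group between ATP and creatine, which gives muscle a store of quickly released energy and a carrier between mitochondria and the sites of ATP use. Ckmt2 is the sarcomeric mitochondrial form, which charges creatine with phosphate, Ckm is the muscle-type cytosolic form at the contractile filaments, and Ckb is the brain-type cytosolic form, which in rodents prevails in the embryonic heart and gives way to Ckm. Slc6a8 brings creatine into the cell, Ak1 interconverts ATP, ADP and AMP in the cytosol, and Mb binds oxygen.

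Total gene counts ran from 20818285 to 53671626 per library, of which 40.7 to 47.8% came from mitochondrially encoded genes. Carm1 itself stood at 17.6 ± 0.363 CPM, counts scaled to a common library size, in 3w KO, against 39.6 ± 0.432 CPM in 3w control, and at 22.3 ± 0.141 CPM in 1w KO, against 39.8 ± 1.02 CPM in 1w control (SD, n = 2 each). Summed counts of 4 Y-linked genes were 3 and 2 in 3w KO and 6765 and 4814 in 3w control, but 5025 and 4282 in 1w KO and 1 and 0 in 1w control. At either age alone, and in the difference between the ages, the effect of KO and that of this split cannot be told apart. The mean of the KO effects at both ages weighs the split equally on both sides. Of the 11 fixed heart muscle markers 3 (Tnnc1, Actc1 and Pln) were listed at 0 in every library, although heart muscle is known to make them, so a 0 in this table may not mean that a gene was silent; the other 8 were present, among them Ttn, Tnnt2 and Myh6, and summed to 57470 to 58260 CPM in 3w KO, 72990 to 76700 CPM in 3w control, 33930 to 34270 CPM in 1w KO and 35110 to 36020 CPM in 1w control.

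In KO the muscle-type kinase Ckm was lower and the brain-type kinase Ckb higher at both ages, so the sequences upstream of a start site of each gene are shown. They are the bases upstream of the RefSeq start sites (GRCm38.p6), Ckm at chr7:19410844-19411024 on the plus strand and Ckb at chr12:111672339-111672588 on the minus strand, printed 5′ to 3′ with motif matches in capitals. For Ckm the 69 bases next to the start site are left out because an annotated exon of the gene already begins there. The printed Ckm bases lie within the annotated span of the gene, which begins at 19404776.
Ckm: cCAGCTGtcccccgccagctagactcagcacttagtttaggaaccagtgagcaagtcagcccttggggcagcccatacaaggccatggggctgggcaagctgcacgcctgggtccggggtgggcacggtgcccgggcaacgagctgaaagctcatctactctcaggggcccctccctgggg
Ckb: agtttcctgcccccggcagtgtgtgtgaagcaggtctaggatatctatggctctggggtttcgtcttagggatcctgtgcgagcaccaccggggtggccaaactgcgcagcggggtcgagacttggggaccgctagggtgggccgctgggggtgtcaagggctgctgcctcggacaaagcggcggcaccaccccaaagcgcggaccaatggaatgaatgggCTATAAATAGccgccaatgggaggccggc
In Ckm the capitals mark an E box, CANNTG, the motif bound by muscle regulators of the MyoD family and other factors, which begins at position -249 from the start site. In Ckb they mark a MEF2 site, named for the muscle transcription factors that bind it, which begins at -29 and overlaps the TATA box letters TATAAA at -28. Both strands of the 250 bases upstream were searched, and the same was done for 32536 such windows. Of those windows 66.2% held an E box, 12.3% the letters TATAAA and 2.89% a MEF2 site. The nuclear receptor motif AAGGTCA (4.09% of windows), the GC box GGGCGG (33% of windows) and the CArG box (1.48% of windows) were in neither of the 2 windows. Nor was TATAAA or a MEF2 site in that of Ckm, or an E box in that of Ckb. The bases of the Ckm window left out above do hold the similar letters TATATAA, which the search for TATAAA did not count, so a TATA box in Ckm is not excluded. Windows were at hand for 5 of the 6 genes.

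By level per length of exon, Mb led in every group. Its mean level was 7367 ± 95.2 CPM per kilobase in 3w KO, 8839 ± 232 in 3w control, 3117 ± 25.7 in 1w KO and 3510 ± 19.4 in 1w control (SD, n = 2 each). It ranked 1 among 14629 nuclear genes by level per kilobase in both 3w groups, and 6 in 1w KO and 5 in 1w control, ranks that leave out abundant genes listed at 0, such as Actc1. At 3w Ckmt2 came next among the 6, with 1220 ± 14.1 CPM per kilobase in KO and 1765 ± 83.6 in control, ahead of Ckm with 599 ± 19.7 in KO and 921 ± 14.3 in control. At 1w Ckm came next, with 377 ± 3.25 CPM per kilobase in KO and 422 ± 6.54 in control, ahead of Ckmt2 with 346 ± 0.474 in KO and 353 ± 4.06 in control. These gaps were wider than the spread within groups. With all annotated transcripts as the gene length, Ckm at 1w was at 355 CPM per kilobase in KO and 397 in control, still above Ckmt2. Ak1 followed with 231 ± 0.584 CPM per kilobase in 3w KO, 274 ± 2.62 in 3w control, 129 ± 0.439 in 1w KO and 144 ± 5.21 in 1w control. Slc6a8 and Ckb were lowest, and their order differed between groups and with the gene length. In 3w KO Slc6a8 had 51.9 ± 0.278 and Ckb 43.7 ± 2.82 CPM per kilobase, and in 1w KO Slc6a8 had 34.9 ± 0.0971 and Ckb 49.4 ± 0.202. In 3w control Slc6a8 had 48.9 ± 2.12 and Ckb 25.8 ± 1.10 CPM per kilobase, and in 1w control Slc6a8 had 37.6 ± 0.986 and Ckb 27.7 ± 2.18. With all transcripts as the length, Ckb in 1w KO was at 25.1 CPM per kilobase, under the 26.6 of Slc6a8. Together the 6 genes took 2.43 and 2.45% of the counts of nuclear genes in 3w KO, 2.68 and 2.74% in 3w control, 1.35 and 1.35% in 1w KO and 1.44 and 1.43% in 1w control.

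The first comparison was KO against control at each age. At 3w 2 of the 6 genes (Ckb and Slc6a8) were higher in KO and 4 lower, or 4 higher and 2 lower when libraries were scaled to heart muscle genes, as described further on. At 1w Ckb was higher, 4 genes were lower and Ckmt2 did not pass the test. A call means a Benjamini-Hochberg adjusted p under 0.05 over all genes tested, in the quasi-likelihood test of edgeR with TMM scaling of library sizes. Of all genes tested 49.2% were called at 3w, 24.4% as higher and 24.8% as lower. At 1w 43.0% were called, 23.0% as higher and 20.0% as lower. Calls were thus common among all genes, and on the heart muscle scale 91.8% of those at 3w were higher. The median log2 fold change of the 6 was -0.26 at 3w and -0.13 at 1w, against 0.01 and 0.02 over all genes tested. Because these are bulk libraries, fewer cells of a type and less RNA per cell cannot be told apart.

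Ckm, the main creatine kinase at the filaments, had 1681 and 1605 CPM in 3w KO and 2552 and 2496 CPM in 3w control. At 1w it had 1041 and 1028 CPM in KO and 1143 and 1169 CPM in control. KO lay below control at both ages with no overlap, by far more at 3w. The log2 fold change was -0.62 ± 0.027 at 3w (SE, adjusted p = 2.2e-29, edgeR) and -0.16 ± 0.027 at 1w (adjusted p = 1.2e-06, edgeR), so that the 3w level in KO was 0.651 of that in control. The difference between the ages was -0.46 ± 0.038 (adjusted p = 5.0e-16, edgeR).

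Ckmt2, the mitochondrial partner of Ckm, had 1827 and 1797 CPM in 3w KO and 2535 and 2710 CPM in 3w control. At 1w the groups were close, with 514 and 513 CPM in KO and 521 and 529 CPM in control. The log2 fold change was -0.53 ± 0.028 at 3w (adjusted p = 2.3e-25, edgeR) and -0.03 ± 0.028 at 1w (adjusted p = 0.4, edgeR). The difference between the ages was -0.50 ± 0.039 (adjusted p = 7.4e-17, edgeR), so Ckmt2 and Ckm were both lower in KO mainly at 3w.

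Ckb, the brain-type kinase, went the other way. It had 67.3 and 61.4 CPM in 3w KO and 39.1 and 36.8 CPM in 3w control. At 1w it had 73.0 and 72.6 CPM in KO and 38.5 and 43.0 CPM in control. All 4 KO libraries lay above all 4 control libraries, and Ckb was the single gene of the 6 with such a gap across both ages. The log2 fold change was 0.76 ± 0.050 at 3w (adjusted p = 3.3e-19, edgeR) and 0.83 ± 0.049 at 1w (adjusted p = 3.9e-21, edgeR). Its difference between the ages, -0.07 ± 0.070, did not pass the test (adjusted p = 0.48, edgeR).

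Ckb is also known from smooth muscle, brain and other cells, and markers of several cell types were also higher in KO. All 6 smooth muscle and pericyte markers were higher in 3w KO, with a summed level of 1611 to 1617 CPM in KO and 790 to 820 CPM in control, and 4 of 6 were higher and 1 lower at 1w, with 1991 to 2012 CPM in KO and 1356 to 1407 CPM in control. All 6 fibroblast markers measured, of 7, were higher at both ages, with 571 to 579 CPM in 3w KO and 265 to 266 CPM in 3w control, and 1870 to 1899 CPM in 1w KO and 1014 to 1021 CPM in 1w control; Tcf21, a defining fibroblast factor, was listed at 0 throughout, with the limit on zeros given above. All 6 macrophage markers were higher at both ages, with 88.2 to 88.5 CPM in 3w KO and 57.5 to 58.6 CPM in 3w control, and 104 to 111 CPM in 1w KO and 32.7 to 32.8 CPM in 1w control. Of 6 endothelial markers 4 were higher and 1 lower at 3w, with 325 to 335 CPM in KO and 274 to 286 CPM in control, and 6 were higher at 1w, with 812 to 820 CPM in KO and 699 to 711 CPM in control. Neuron and glia markers summed to 1.52 to 1.78 CPM in 3w KO, 1.13 to 1.22 CPM in 3w control, 2.25 to 2.54 CPM in 1w KO and 2.31 to 2.57 CPM in 1w control, and of the 2 tested, of 6, 1 was higher in KO at either age. Between the ages in control, Ckb did not pass the test with TMM scaling, but was lower at 3w on the heart muscle scale (-1.17). With TMM scaling, all 6 fibroblast markers tested and all 6 smooth muscle and pericyte markers were lower at 3w in control. Of the endothelial markers 5 were lower and 1 higher there, and of the macrophage markers 4 were higher. In KO, where Ckb was lower at 3w, 6 fibroblast, 5 smooth muscle and pericyte, 5 endothelial and 4 macrophage markers were lower. The part of these cells in the level of Ckb was not tested.

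Slc6a8, which imports creatine, differed little between KO and control with TMM scaling. At 3w, however, it was higher in KO by 0.45 on the heart muscle scale (adjusted p = 7.3e-15, edgeR), where the median of all genes tested was 0.37. It had 206 and 205 CPM in 3w KO and 199.8 and 188 CPM in 3w control, and 138 and 139 CPM in 1w KO and 152 and 146 CPM in 1w control. The log2 fold change was 0.08 ± 0.034 at 3w (adjusted p = 0.039, edgeR) and -0.11 ± 0.035 at 1w (adjusted p = 0.011, edgeR), with opposite signs. The call at 3w was lost in 9 of 18 alternatives (adjusted p 7.3e-15 to 0.76, edgeR or DESeq2), among them DESeq2 (adjusted p = 0.2) and the fits without any 1 of the 4 KO libraries or without the second control library at 3w, the last with 0.02 (adjusted p = 0.76, edgeR). The call at 1w was lost without the first control library or either KO library at 1w (adjusted p = 0.1, 0.094 and 0.079, edgeR). The gene lies on the X chromosome, and at each age it was higher in the group without Y-linked transcripts, so the sign of its KO effect followed that split. Averaged over the ages the effect was -0.01 ± 0.025 (adjusted p = 0.72, edgeR).

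Ak1, the cytosolic adenylate kinase, had 529.5 and 531 CPM in 3w KO and 626 and 634 CPM in 3w control, and 297.5 and 296 CPM in 1w KO and 323 and 340.4 CPM in 1w control. KO lay below control at both ages with TMM scaling, and above it at 3w on the heart muscle scale. Ak1 was at 0.12 on that scale, under the median of 0.37 over all genes tested. With TMM scaling the log2 fold change was -0.25 ± 0.030 at 3w (adjusted p = 2.6e-10, edgeR) and -0.16 ± 0.031 at 1w (adjusted p = 1.3e-05, edgeR).

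Mb, the oxygen store, had 10350 and 10540 CPM in 3w KO and 12300 and 12770 CPM in 3w control, and 4446 and 4395 CPM in 1w KO and 4997 and 4958 CPM in 1w control. As for Ak1, KO lay below control at both ages with TMM scaling, and above it at 3w on the heart muscle scale. Mb was at 0.11 on that scale, also under the median of 0.37 over all genes tested. With TMM scaling the log2 fold change was -0.26 ± 0.023 at 3w (adjusted p = 2.6e-15, edgeR) and -0.17 ± 0.023 at 1w (adjusted p = 6.7e-09, edgeR).

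**Figure D1:**
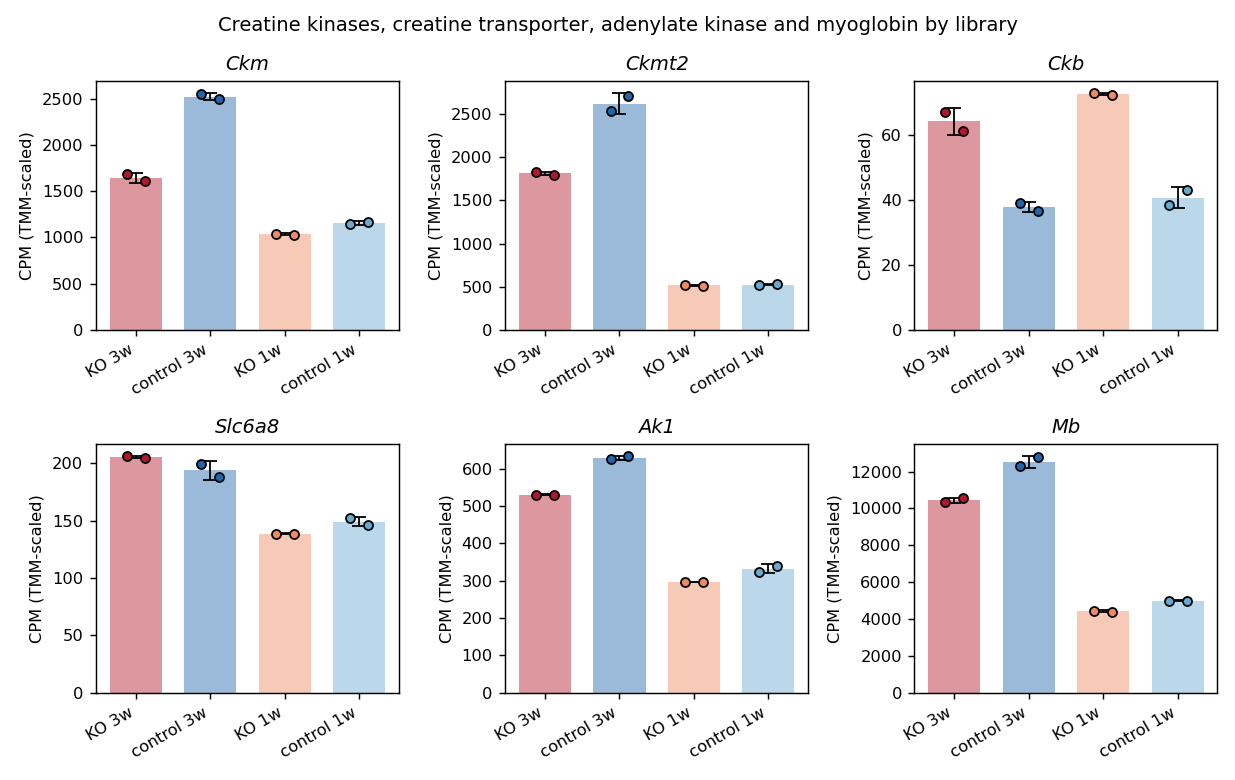
TMM-scaled CPM (vertical axis, from 0) of the 6 genes in 3w KO, 3w control, 1w KO and 1w control; points are libraries, bars the mean and error bars the SD of 2 libraries. Ckb is the single panel in which both KO bars, at 64.3 and 72.8 CPM, stand above both control bars, while Ckm and Ckmt2 show their widest gap at 3w.

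The difference between the ages was also tested across genes. Of the 6, 1 was called with a higher KO effect at 3w than at 1w (Slc6a8, 0.19 ± 0.049, adjusted p = 0.0015, edgeR) and 3 with a lower one, Ckm, Ckmt2 and Mb. Of all genes tested 35.6% were called, 17.6% as higher and 17.9% as lower. For Mb the difference was only -0.09 ± 0.033 (adjusted p = 0.022, edgeR), and it missed the threshold under DESeq2 (adjusted p = 0.076) and in 9 of its 17 alternatives in all (adjusted p 2.3e-04 to 0.39), among them the fits without any 1 of the 4 KO libraries or without the second control library at 3w. Ak1 had the same size, -0.09 ± 0.043, and did not pass (adjusted p = 0.12, edgeR). On the heart muscle scale Mb, Ak1 and Ckb turned to positive differences (0.22, 0.22 and 0.23), while Ckm, Ckmt2 and Slc6a8 kept their signs. These positive differences were called (adjusted p = 2.3e-04, 0.0022 and 0.014, edgeR), so 4 of the 6 were higher and 2 lower there. The p-value of Mb is the lowest of its range above and belongs to this reversed sign. The median of all genes tested was 0.30 on that scale, and 88.1% of the genes called were higher. None of these differences can be told apart from the split by Y-linked transcripts or from the labelled injection days, which differ between the ages. Carm1 itself was also called with a lower KO effect at 3w than at 1w, at -0.34.

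In the mean of both ages, where that split is balanced, 1 gene was higher in KO and 4 were lower with TMM scaling, against 2 higher and 2 lower on the heart muscle scale. Ckb rose by 0.79 ± 0.035 on the log2 scale (adjusted p = 7.6e-27, edgeR). Ckm fell by 0.39 ± 0.019 (adjusted p = 7.1e-27, edgeR) and Ckmt2 fell by 0.28 ± 0.020 (adjusted p = 1.9e-19, edgeR). Mb fell by 0.22 ± 0.016 (adjusted p = 4.4e-18, edgeR) and Ak1 fell by 0.21 ± 0.022 (adjusted p = 1.9e-12, edgeR) with TMM scaling, though with library size set to heart muscle genes Mb was at -0.0011 and Ak1 at 0.01. On that scale Ckm was at -0.17 (adjusted p = 1.2e-07, edgeR), Ckmt2 at -0.07 (adjusted p = 0.046, edgeR) and Slc6a8 at 0.20 (adjusted p = 1.6e-07, edgeR). The median of all genes tested was 0.23 there. With TMM scaling 52.8% of all genes tested were called in this mean, 27.5% as higher and 25.3% as lower. On the heart muscle scale 88.6% of the genes called were higher.

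The effects were also set against heart muscle genes as a whole. Of the 8 heart muscle markers with counts, all 8 were lower in 3w KO and 6 were lower and 1 higher at 1w, with medians of -0.33 and -0.22. When library size was set to the summed counts of these 8 genes, of which Myh6 made up 45.4 to 55.2%, the median of all genes moved by 0.37 at 3w and by 0.06 at 1w. On that scale Ckm stayed lower at 3w (-0.25, adjusted p = 7.9e-08, edgeR) and Ckmt2 too (-0.16, adjusted p = 3.8e-04, edgeR). Mb (0.11, adjusted p = 0.0073, edgeR) and Ak1 (0.12, adjusted p = 0.013, edgeR) turned to higher in 3w KO. Ckb was higher by 1.13 at 3w and by 0.89 at 1w. At 1w Ckm was at -0.10 and Mb at -0.11 and both stayed called, while Ak1 at -0.10 and Slc6a8 at -0.05 did not, and 3 of the 6 were called in place of 5. Under DESeq2 size factors and upper-quartile factors, and without mitochondrially encoded genes, the KO effects of Ckm, Ckmt2, Ckb, Ak1 and Mb kept their signs at both ages. With TMM scaling 49.6% of the genes called at 3w were higher in KO, and with heart muscle scaling 91.8%; at 1w the shares were 53.5% and 67.5%.

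**Figure D2:**
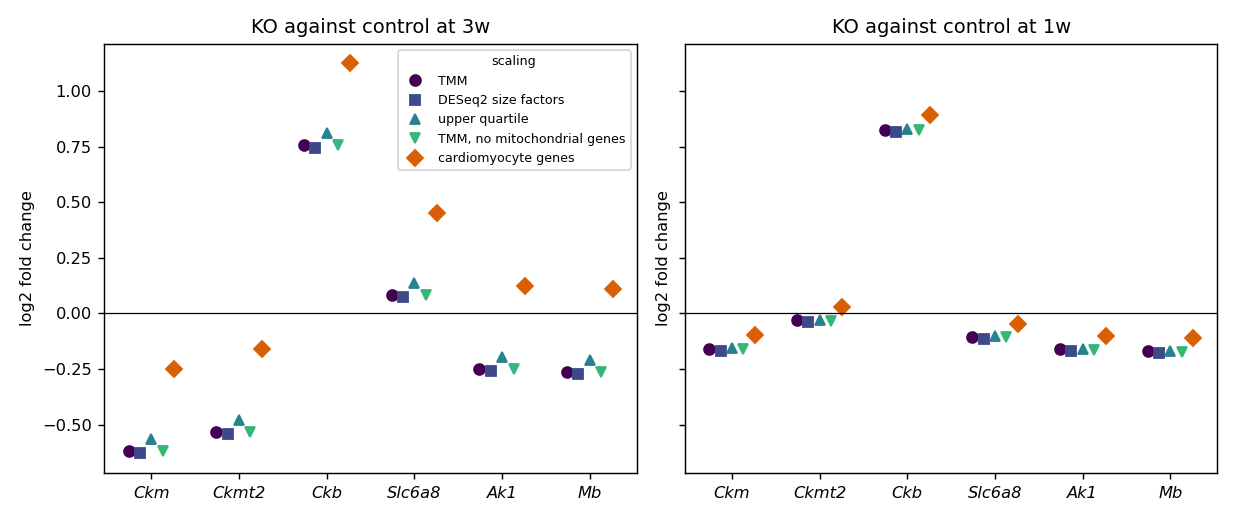
Log2 fold change of KO against control (vertical axis) of the 6 genes at 3w and at 1w under 5 scalings of library size, one symbol each. With heart muscle genes as the scale, Mb and Ak1 cross 0 at 3w to 0.11 and 0.12, while Ckm and Ckmt2 stay below and Ckb above 0. The median of all genes tested was 0.37 at 3w on that scale.

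The balance between the kinases was taken as ratios of counts within a library, which need no scaling. Per kilobase, Ckb made up 6.94 and 6.65% of the cytosolic kinases Ckb and Ckm in 3w KO, against 2.77 and 2.67% in 3w control. At 1w it made up 11.6 and 11.6% in KO, against 5.90 and 6.42% in control. The share was larger in KO at both ages and smaller at 3w than at 1w in both, so that 3w KO stood just above 1w control. With all annotated transcripts as the gene length the shares were lower, from 1.46% in 3w control to 6.63% in 1w KO, in the same order. The log2 ratio of Ckb over Ckm was higher in KO than in control by 1.38 at 3w and by 1.00 at 1w, a mean of 1.19 (two-sided exact permutation test within age, p = 0.0556). At 3w it was lower than at 1w by 0.85 in KO and 1.23 in control, a mean difference of -1.04 (two-sided exact permutation test within KO status, p = 0.0556). With 36 arrangements 0.0556 is the smallest p this design allows, so it cannot pass 0.05.

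Ckmt2 moved nearly in step with Ckm under KO but not with age. The count ratio of Ckmt2 over Ckm was 1.09 and 1.12 in 3w KO and 0.993 and 1.09 in 3w control, and 0.494 and 0.499 in 1w KO and 0.455 and 0.453 in 1w control. The groups nearly met at 3w, and the log2 ratio differed between KO and control by 0.09 at 3w and 0.13 at 1w, a mean of 0.11 (two-sided exact permutation test, p = 0.0556). Between ages it was higher at 3w by 1.15 in KO and 1.19 in control, a mean of 1.17 (two-sided exact permutation test, p = 0.0556, the smallest possible). Per kilobase Ckmt2 made up 65.1 and 65.8% of all creatine kinase in 3w KO and 64.1 and 66.1% in 3w control, against 44.6 and 44.9% in 1w KO and 44.1 and 43.9% in 1w control.

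**Figure D3:**
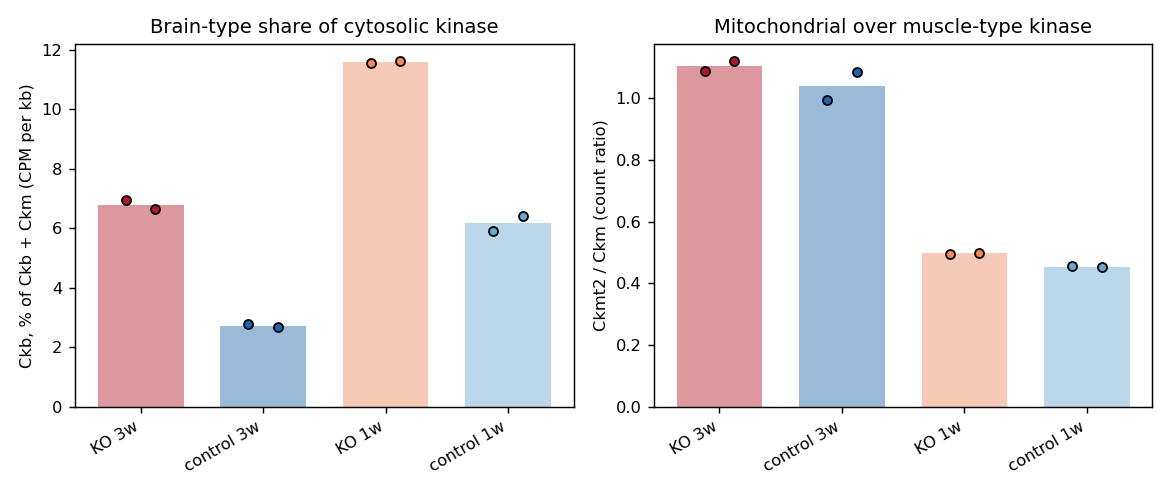
Left, Ckb as a percentage of Ckb plus Ckm per kilobase; right, the count ratio of Ckmt2 over Ckm, in 3w KO, 3w control, 1w KO and 1w control; points are libraries and bars their mean. The Ckb share is larger in KO at both ages, whereas the Ckmt2 ratio separates the ages, at 0.993 to 1.12 at 3w and 0.453 to 0.499 at 1w.

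The second question the design allows is the change between 3w and 1w, a time when mouse heart muscle matures. In KO 5 of the 6 were higher at 3w and Ckb was lower, and in control 5 were higher and Ckb did not pass the test, with TMM scaling; on the heart muscle scale 2 were higher and 3 lower in each. Within KO and within control the ages also differ in Y-linked transcripts and in the labelled day of injection, and neither can be told apart from age. With TMM scaling 67.9% of all genes tested were called in KO, 33.2% as higher and 34.6% as lower. In control 70.8% were called, 34.9% as higher and 36.0% as lower. On the heart muscle scale, 7.85% of the genes called in KO were higher at 3w, and 6.14% of those in control. Ckmt2 rose most of the 6, by 1.82 ± 0.028 in KO (adjusted p = 2.0e-53, edgeR) and 2.32 ± 0.029 in control (adjusted p = 6.4e-59, edgeR). Mb rose by 1.24 ± 0.023 in KO and 1.33 ± 0.023 in control, and Ckm by 0.67 ± 0.027 in KO and 1.13 ± 0.027 in control. Ak1 rose by 0.84 ± 0.031 in KO and 0.92 ± 0.031 in control. Slc6a8 rose by 0.57 ± 0.035 in KO and 0.38 ± 0.035 in control. Ckb fell by 0.18 ± 0.046 in KO (adjusted p = 6.4e-04, edgeR), a call lost without the second KO library at 3w (-0.09, adjusted p = 0.18, edgeR) and kept in its other 16 alternatives. In control its difference was -0.11 ± 0.053 (adjusted p = 0.064, edgeR). Of its 17 alternatives there 4 passed, among them the fits without the first control library at 1w (-0.17) or at 3w (-0.15). The heart muscle scale also gave a call (-1.17, adjusted p = 9.1e-38, edgeR), where the median of all genes tested was -1.09.

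The heart muscle markers as a whole were also higher at 3w, all 8 in KO and in control. On the scale of their sum, which moved the median of all genes by -0.76 in KO and -1.07 in control, Ckmt2 and Mb remained higher at 3w, by 1.06 and 0.48 in KO and by 1.25 and 0.26 in control. Ckm was then at -0.10 in KO and 0.05 in control, Ak1 at 0.07 in KO and -0.15 in control, Slc6a8 at -0.19 in KO and -0.69 in control, and Ckb at -0.94 in KO and -1.17 in control. The age changes of KO and of control share no libraries, but their difference is the same contrast as the difference of the KO effects between ages given above.

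**Figure D4:**
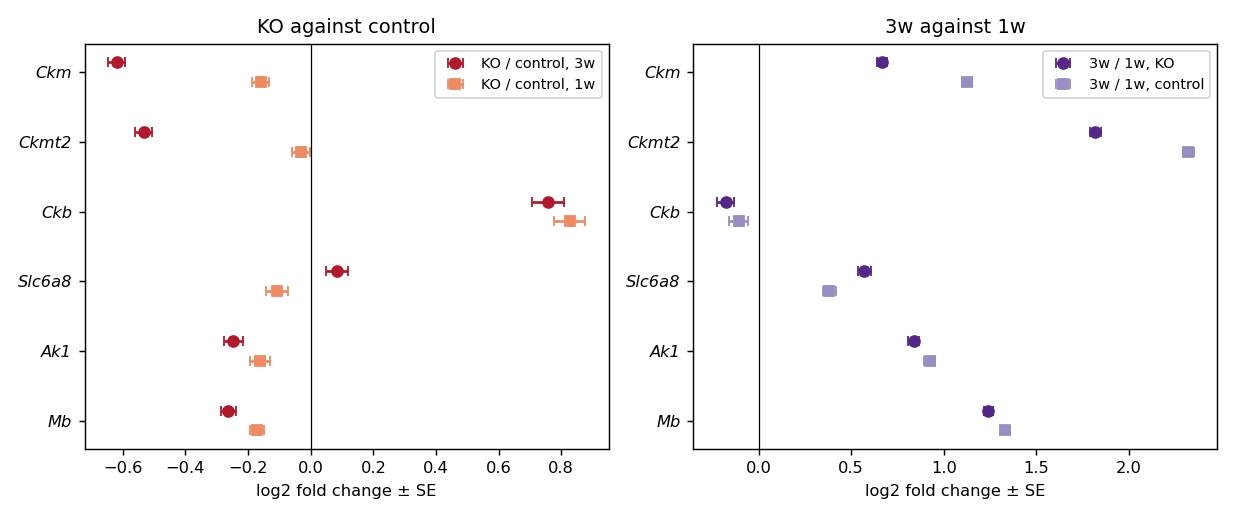
Log2 fold changes with their SE (horizontal axes) of the 6 genes, left for KO against control and right for 3w against 1w, with TMM scaling. Ckb lies at 0.76 and 0.83 on the left while Ckm, Ak1 and Mb lie below 0 (Ak1 and Mb above 0 at 3w on the heart muscle scale, not drawn), and on the right Ckmt2 lies farthest out, at 1.82 in KO and 2.32 in control.

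Across the 8 libraries, log2 CPM of Ckmt2, Ak1 and Mb ran closely together, with Pearson's r of 0.992 to 0.997 between them, and Ckm with them at 0.951 to 0.966. Slc6a8 correlated with these 4 at 0.834 to 0.955, and Ckb with the other 5 at -0.52 to -0.20. These are descriptions over libraries that share group and age. The genes most like each member were sought among 6851 genes with a mean of at least 10 CPM. For Ckm they were Ndufa6 (r = 0.9995), a subunit of respiratory complex I, and Mgst3 (r = 0.9988), a microsomal glutathione transferase. For Ckmt2 they were Lmod2, a leiomodin of the thin filament (r = 0.9996), and Klf9, a zinc finger factor (r = 0.9995), and for Mb the potassium channel Kcnj12 and the calcium channel subunit Cacna2d1 (r = 0.9995 each). For Ak1 they were the tropomyosin Tpm1 (r = 0.9989) and Drap1 (r = 0.9988), and for Slc6a8 Rprd1a (r = 0.9975) and Pcyox1 (r = 0.9962). Ckb had few close companions: 19 genes correlated with it above 0.95, against 471 to 1252 for the other 5. The closest were Lims2, an adaptor of cell adhesions (r = 0.9957), and Caskin2 (r = 0.9913). Lims2 had 43.4 ± 1.73 CPM in 3w KO, 29.9 ± 1.84 in 3w control, 46.9 ± 1.26 in 1w KO and 32.2 ± 2.23 in 1w control.

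The rest of the creatine pathway was low. Gatm, which makes the creatine precursor guanidinoacetate, was at 2.93 ± 0.296 CPM in 3w KO and 0.793 ± 0.178 CPM in 3w control, a log2 fold change of 1.92 ± 0.22 (adjusted p = 2.8e-11, edgeR). At 1w it was at 4.63 ± 0.192 CPM in KO and 3.82 ± 0.474 CPM in control, which did not pass. Gamt, which methylates guanidinoacetate to creatine, was higher in 1w KO (0.46 ± 0.19, adjusted p = 0.041, edgeR), with 2.59 ± 0.147 CPM in KO and 1.91 ± 0.149 CPM in control. Ckmt1, the ubiquitous mitochondrial kinase, was under 1 CPM in every group and higher in 3w KO (1.07 ± 0.43, adjusted p = 0.032, edgeR), at 0.631 ± 0.044 CPM in KO and 0.291 ± 0.0611 CPM in control. Of these 3 genes 2 were thus higher at 3w and 1 at 1w, with 0 lower at either age. Of all genes tested 24.4% were higher at 3w and 23.0% at 1w. Ckmt1 rested on only 7 to 19 counts per library.

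Among the other adenylate kinases, Ak4, of the mitochondrial matrix, had 21.7 ± 0.00391 CPM in 3w KO and 17.0 ± 1.29 CPM in 3w control (0.34 ± 0.072, adjusted p = 6.1e-05, edgeR), and it was at 0.71 on the heart muscle scale (adjusted p = 6.4e-14, edgeR). Ak3, also of the matrix, had 19.6 ± 0.225 CPM in 3w KO and 19.9 ± 0.749 CPM in 3w control, and 12.8 ± 0.736 CPM in 1w KO and 13.1 ± 0.530 CPM in 1w control. It did not pass the test at either age with TMM scaling, but was higher in 3w KO on the heart muscle scale (0.34, adjusted p = 8.4e-05, edgeR). The median of all genes tested on that scale was 0.37 at 3w.

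The genes that carry ATP out of mitochondria were lower in 3w KO with TMM scaling, Slc25a4 by most. Slc25a4, the adenine nucleotide translocator of heart and muscle, had 4200 ± 47.8 CPM in 3w KO and 6561 ± 201 CPM in 3w control, a log2 fold change of -0.64 ± 0.026 (adjusted p = 3.4e-28, edgeR), and 2668 ± 32.6 CPM in 1w KO and 2952 ± 128 CPM in 1w control (-0.15 ± 0.026, adjusted p = 6.3e-06, edgeR). Vdac1, Vdac2 and Vdac3, the channels of the outer membrane, were at -0.31 ± 0.029, -0.14 ± 0.031 and -0.35 ± 0.040 at 3w with TMM scaling, and at 0.06, 0.23 and 0.02 on the heart muscle scale. All 5 genes of this list were lower in 3w KO and 2 at 1w with TMM scaling, against 24.8% and 20.0% of all genes tested. On the scale of heart muscle genes, however, 1 (Slc25a4, -0.27) was lower and 2 were higher at 3w, and 1 was lower and 1 higher at 1w. The median of all genes tested on that scale was 0.37 at 3w.

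In adenine nucleotide turnover, 9 of 11 genes passed the filter, and 2 were higher and 3 lower in KO at each age with TMM scaling. On the heart muscle scale 6 were higher and 1 lower at 3w, and 3 higher and 1 lower at 1w. Of all genes called on that scale, 91.8% were higher at 3w and 67.5% at 1w, with a median over all genes tested of 0.37 at 3w. Adk, adenosine kinase, had 99.0 ± 1.99 CPM in 3w KO and 148 ± 1.36 CPM in 3w control (-0.58 ± 0.039, adjusted p = 2.4e-20, edgeR) and was the gene still lower on the heart muscle scale (-0.21). Adssl1, the muscle adenylosuccinate synthase, was lower at 1w (-0.14 ± 0.039, adjusted p = 0.0020, edgeR) and at -0.08 ± 0.038 at 3w with TMM scaling, but on the heart muscle scale it lost the call at 1w (-0.08, adjusted p = 0.22, edgeR) and was higher at 3w (0.28, adjusted p = 5.5e-07, edgeR). Adsl, adenylosuccinate lyase, was lower at 3w with TMM scaling (-0.27 ± 0.045, adjusted p = 1.2e-06, edgeR) but at 0.10 on the heart muscle scale. Ampd2, an AMP deaminase, was higher at 3w (0.92 ± 0.18, adjusted p = 1.8e-05, edgeR), at 2.91 ± 0.321 CPM in KO and 1.52 ± 0.105 CPM in control.

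AMP-activated protein kinase senses the AMP that adenylate kinases make. Of its 7 subunit genes 4 were higher and 0 lower in 3w KO, and 1 was higher and 1 lower at 1w. On the heart muscle scale 5 were higher and 0 lower at 3w, with the same counts at 1w. Of all genes called on that scale, 91.8% were higher at 3w and 67.5% at 1w. With TMM scaling 24.4% of all genes tested were higher and 24.8% lower at 3w, and 23.0% and 20.0% at 1w. Prkaa2, the catalytic subunit of muscle, had 120 ± 1.53 CPM in 1w KO and 161 ± 4.23 CPM in 1w control (-0.43 ± 0.035, adjusted p = 2.0e-16, edgeR). At 3w it had 168 ± 3.08 CPM in KO and 171 ± 1.92 CPM in control (-0.02 ± 0.034, adjusted p = 0.58, edgeR). On the heart muscle scale it was higher in 3w KO (0.35, adjusted p = 4.1e-10, edgeR), where the median of all genes tested was 0.37. Prkag2, a regulatory subunit of heart, was higher at 3w by 0.35 ± 0.060 (adjusted p = 1.4e-06, edgeR), Prkab2 by 0.16 ± 0.051 (adjusted p = 0.0066, edgeR) and Prkag3, known from skeletal muscle, by 1.43 ± 0.21 (adjusted p = 3.1e-08, edgeR). Prkag3 stood at 3.21 ± 0.0536 CPM in KO and 1.23 ± 0.316 CPM in control. Skeletal muscle markers were higher with it: the 3 tested, of 8, were all higher at both ages, with a sum of 11.2 to 11.7 CPM in 3w KO and 3.89 to 4.17 CPM in 3w control, and 4.08 to 4.58 CPM in 1w KO and 1.93 to 2.60 CPM in 1w control. Ckm, Ak1 and Mb, which skeletal muscle also makes, were lower in KO at both ages with TMM scaling, Ak1 and Mb turning to higher at 3w on the heart muscle scale as given above; the part of skeletal muscle cells was not tested. Atrial muscle markers differed too, with all 5 higher at 1w, at 591 to 597 CPM in 1w KO and 53.6 to 55.7 CPM in 1w control, and 1 higher and 4 lower at 3w. The sum at 3w, 586 to 600 CPM in 3w KO and 164 to 168 CPM in 3w control, was mostly Nppa, the gene that was higher, with 583 ± 9.45 CPM in 3w KO and 103 ± 1.63 CPM in 3w control (SD, n = 2 each). The 4 that were lower included Myl4, with 7.37 ± 0.0165 CPM in 3w KO and 24.8 ± 1.52 CPM in 3w control; the part of atrial cells was not tested either.

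Among the other globins of tissue cells, Cygb, known from fibroblasts, had 12.3 ± 0.485 CPM in 3w KO and 4.38 ± 0.00414 CPM in 3w control (1.48 ± 0.10, adjusted p = 4.9e-20, edgeR), and 24.6 ± 0.839 CPM in 1w KO and 19.7 ± 1.05 CPM in 1w control (0.33 ± 0.067, adjusted p = 3.8e-05, edgeR). The fibroblast markers given above moved with it, and their part was not tested. Erythroid markers, of which 4 of 6 were tested, summed to 155 to 158 CPM in 3w KO and 119 to 131 CPM in 3w control (2 higher). At 1w they summed to 25.5 to 27.1 CPM in KO and 54.2 to 76.0 CPM in control (3 lower). A link of these markers to any of the 6 genes was not tested. Ngb, the globin of neurons, had at most 5 counts in a library and was not tested.

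Of 8 regulators known for muscle genes such as Ckm and Mb, 7 were tested; Srf was listed at 0, with the limit on zeros given above. At 1w 5 were lower and 1 higher in KO, and at 3w 1 was lower and 1 higher, or 6 higher and 1 lower on the heart muscle scale. On that scale 91.8% of all genes called at 3w were higher. With TMM scaling 20.0% of all genes tested were lower at 1w and 23.0% higher. Myocd, a cardiac and smooth muscle coactivator, had 76.9 ± 1.06 CPM in 1w KO and 119 ± 4.87 CPM in 1w control (-0.62 ± 0.039, adjusted p = 2.4e-21, edgeR), but 97.7 ± 2.35 CPM in 3w KO and 77.0 ± 1.66 CPM in 3w control (0.35 ± 0.040, adjusted p = 5.6e-11, edgeR). Ppargc1a, a coactivator of mitochondrial genes, had 123 CPM in 1w KO and 388 CPM in 1w control and 127 CPM in 3w KO and 221 CPM in 3w control. Its KO effect was larger at 1w (3w less 1w 0.86 ± 0.049, adjusted p = 7.0e-23, edgeR). That of Slc25a4, like those of Ckm and Ckmt2, was larger at 3w (-0.50 ± 0.037, adjusted p = 9.3e-17, edgeR). A link between these genes was not tested, and the split by Y-linked transcripts runs opposite ways at 3w and 1w. Mef2d was lower at 1w (-0.19 ± 0.034, adjusted p = 2.8e-06, edgeR) and at 0.07 ± 0.034 at 3w with TMM scaling, and Esrra, an orphan nuclear receptor of energy genes, was higher at 1w (0.20 ± 0.053, adjusted p = 0.0052, edgeR) and at -0.10 ± 0.050 at 3w. On the heart muscle scale both were higher in 3w KO, Mef2d by 0.44 (adjusted p = 1.2e-14, edgeR) and Esrra by 0.26 (adjusted p = 4.7e-06, edgeR). The median of all genes tested was 0.37 on that scale at 3w.

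**Figure D5:**
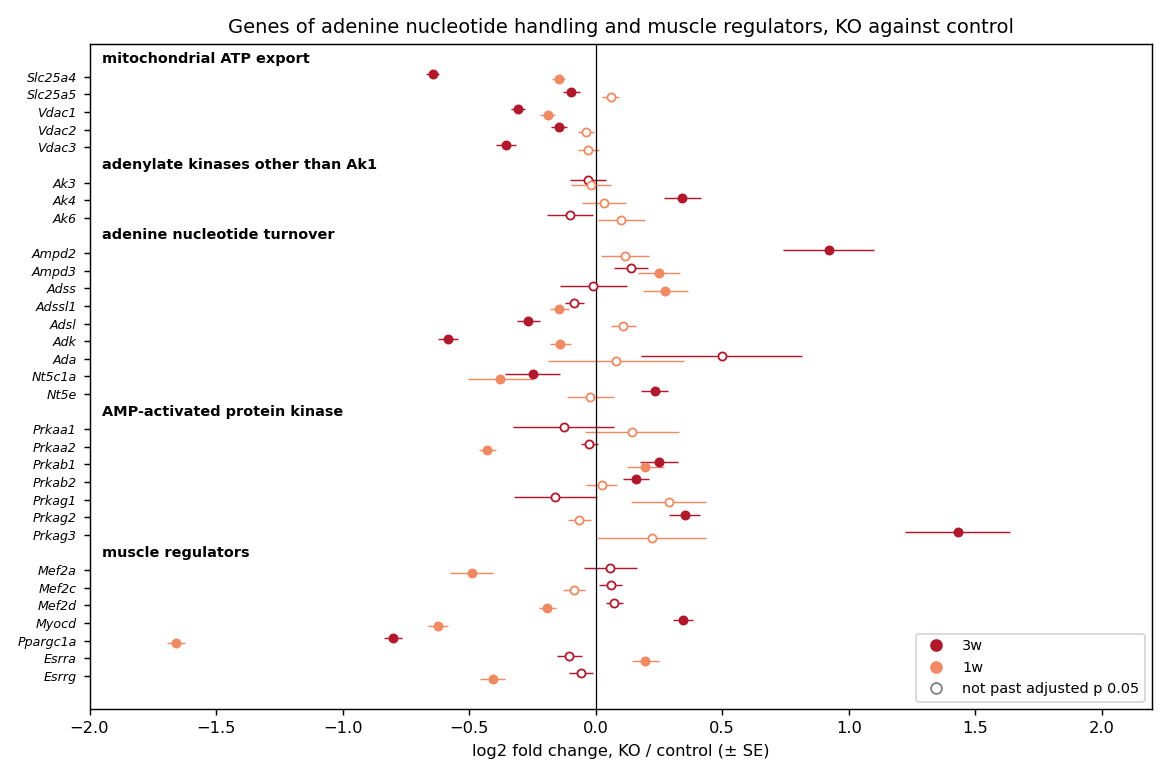
Log2 fold change of KO against control with its SE (horizontal axis, TMM scaling) for genes of ATP export, some other adenylate kinases, adenine nucleotide turnover, AMP-activated protein kinase and muscle regulators, at 3w and at 1w; open points did not pass. Slc25a4 lies at -0.64 at 3w and Ppargc1a at -1.66 at 1w, while Prkag3 lies at 1.43 and Ampd2 at 0.92 at 3w.

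Some counts could be shared with other genes. Ckm overlaps an antisense gene over 451 exonic bases and Ckmt2 another over 84, and both antisense genes were listed at 0. Mb shares 412 exonic bases with an antisense gene of 3 to 43 counts, at most 0.0147% of the Mb counts of a library, and 64 bases with Apol6. The 2 Ckb pseudogenes had a summed level of at most 0.0225 CPM. The strand setting of the counting is not given in the sources used here, so reads of these genes and their antisense partners cannot be told apart.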

How the data were processed

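The deposited table holds gene-level counts per library, which per the submitters' processing notes came from HISAT2 alignment to mm10 and featureCounts, with FastQC and MultiQC for quality and DESeq2 for testing. For versions, strand setting and annotation, nothing is given in the sources used here; the labels' protocols name SMART and Nextera XT library kits. All 8 columns belonged to labelled samples. Gene names and merged exon lengths (basic transcripts) were taken from GENCODE M21 (54723 of 54752 IDs matched); promoters came from RefSeq (GRCm38.p6).

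From the counts, genes were kept by filterByExpr (minimum count 10, minimum total 15), leaving 14665. TMM factors (trimmed mean of M-values, 0.759 to 1.23) scaled the libraries and also enter all CPM values. A single fit of the 4 groups gave all contrasts, by the robust quasi-likelihood F-test of edgeR on 4 residual degrees of freedom, with Benjamini-Hochberg adjustment over all genes of a comparison. The SE was derived from the F statistic. Ratios of 2 genes were tested by exact permutation. For correlations, log2 CPM had 2 as prior count. The procedure was tested on simulated data. The libraries of each group differed by more than sampling noise (chi-square per gene 1.46 to 6.89) and were kept apart. Versions used were edgeR 4.0.16, DESeq2 1.42.0 and limma 3.58.1 under R 4.3.3.

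The members and lists were chosen with earlier results of these data known. All 6 members are named; of each of 7 pathway lists (44 genes), up to 3 genes of highest mean CPM and up to 2 called genes of largest KO effect are named, and for likeness the 2 genes of highest r; 1 gene named by this rule is not reported here. The alternatives were another test, other scalings, no filter, no robust estimation, fewer groups in the fit, a replicate block and each library left out; gene length from all transcripts was chosen after seeing the data.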

Additional observations from a re-analysis of the deposited data

Results flagged for a closer look

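In 4 of the 6 genes the KO effect differed between the ages in edgeR's quasi-likelihood test of that difference, a test that called 35.6% of all genes tested. With the 1w effect subtracted from the 3w effect, Ckm had a log2 difference of -0.46 (adjusted p = 5.0e-16) and Ckmt2 of -0.50 (adjusted p = 7.4e-17). It was -0.0917 for Mb (adjusted p = 0.022) and 0.19 for Slc6a8 (adjusted p = 0.0015). For Ckm and Ckmt2 the difference is that of a strong fall at 3w and a small or uncalled one at 1w, and both kept sign and call on the scale of heart muscle genes (-0.15, adjusted p = 0.027, and -0.19, adjusted p = 0.0045). For Mb it turned to 0.22 on that scale, a call in the reverse direction (adjusted p = 2.3e-04, edgeR). Counting that reversed call, 8 of its 17 alternatives passed the threshold. The Mb difference missed it under DESeq2 (adjusted p = 0.076) and with the replicate block (adjusted p = 0.051, edgeR). The same libraries differ in Y-linked transcripts in opposite directions at the 2 ages, so the difference cannot be told apart from that split. The labelled injection days differ between the ages as well.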

How the results depend on the processing

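Of 624 repeats of the KO, age and difference values of the 6 genes under other settings, 576 kept sign and call, 28 lost the call, 7 gained it and 13 turned sign. Of the sign changes 12 came from scaling to heart muscle genes: Ckmt2 in KO against control at 1w (0.0303), Ak1 (0.12) and Mb (0.11) at 3w, Slc6a8 (0.20) and Ak1 (0.0108) over both ages, Slc6a8 (-0.69) and Ak1 (-0.15) at 3w against 1w in control, Ckm (-0.10) and Slc6a8 (-0.19) at 3w against 1w in KO, and Ckb (0.23), Ak1 (0.22) and Mb (0.22) in the difference of KO effects. The other was Slc6a8 over both ages with upper-quartile factors (0.0163). With heart muscle scaling 3 of the 6 were called in KO against control at 1w. By construction that scale sets heart muscle genes near 0; it moved the median of all genes by 0.21 over both ages and 0.30 in the difference, and the share of called genes that were higher to 88.6% over both ages (52.1% with TMM), 88.1% in the difference (49.6%), 7.85% for age in KO (49%) and 6.14% for age in control (49.2%).

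DESeq2 called 4043 genes in KO against control at 1w, against 6305 in edgeR, and 3351 in the difference of KO effects, against 5215; the cause was not tested. Leaving out each library in turn gave 5 to 6 members called at 3w and 4 to 5 at 1w in KO against control, 5 to 6 over both ages and for age in KO and in control, and 3 to 5 in the difference. The log2 ratio of Ckb over Ckm ran from 1.16 to 1.22 for KO and -1.07 to -1.01 for age, and that of Ckmt2 over Ckm from 0.08 to 0.14 and 1.14 to 1.20. Slc6a8 at 3w was 0.02 (adjusted p = 0.76, edgeR) without the second control library at 3w, and at 1w it lost its call without the first control library at 1w (-0.08, adjusted p = 0.1) or either KO library at 1w (adjusted p = 0.094 and 0.079). Ckb at 3w against 1w in control was called without the first control library at 1w (-0.17, adjusted p = 0.0059) or at 3w (-0.15, adjusted p = 0.042), and lost in KO without the second KO library at 3w (-0.09, adjusted p = 0.18).

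Replicate numbers gave no sign of pairing: deviations of same-numbered libraries correlated at 0.02 at 3w and -0.03 at 1w over 6857 genes. With 2 libraries per group this check cannot exclude pairing. Same-numbered KO and control libraries of an age share the labelled injection day. A fit with the replicate number as a block left Mb without a call in the difference of KO effects (-0.09, adjusted p = 0.051) and changed no other call of the 6 genes; a block by injection day gave the same (-0.09, adjusted p = 0.051). A group size of 2 libraries and uncertainty on their origin limit every p-value here.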
